A study of Mus musculus with 16 samples.

Results

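Olig1, Olig2, Nkx2-2, Sox10, Pdgfra, Cspg4 and Dcx, genes of the oligodendrocyte lineage and of newly formed neurons, were followed through 12 clones of mouse neural cells. They are 7 of the 50600 genes counted, and they were picked by name. All clones came from embryonic stem cells (ESCs) of an F1 cross between a 129/Sv mother and a Cast father, so that reads covering a SNP could be assigned to an allele. Neural progenitor cells (NPCs) were derived with 7 days in N2B27 medium, then 3 days as aggregates with EGF and FGF2 at 10 ng/mL. The cells were then expanded in that medium. The astrocytes were NPC clones moved to N2B27 medium with BMP4 and a lower concentration of FGF2, for which the paper lists no EGF. BMP4 is a signalling protein that takes NPCs towards astrocytes. Effects of BMP4 and of the change in growth factors cannot be told apart. Poly(A) RNA was sequenced from 5 astrocyte clones (129, C2 and G4, female; mC3 and mE6, male) and from 3 NPC clones (F5, female; mG2 and mG6, male), and ribosomal RNA-depleted RNA from 4 male NPC clones with 2 libraries each (Ch3, Ch5, Ch7, Ch8).

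Each clone is the progeny of a single cell, and the astrocyte and poly(A) NPC libraries come from different clones, with 1 library per clone. A difference between cell types therefore cannot be told apart from one between these sets of clones or between their title prefixes, which never overlap. Female and male clones came from different ESC lines, so that sex and line cannot be told apart either. The libraries held 78257443 to 93963293 reads on genes in astrocytes, 69925081 to 105892734 in poly(A) NPCs and 20871111 to 30920672 in the ribosomal RNA-depleted NPCs. Of 11 astrocyte markers, all tested, 3 rose and 1 fell at an adjusted p under 0.05 (edgeR), with a median log2 change of 2.41. Over all genes tested, 13.0% rose and 12.6% fell at that threshold. Gfap, an intermediate filament gene, rose from 1.54 ± 0.766 CPM (read counts scaled to a common library size; SD, n = 3) in NPCs to 537 ± 808 (SD, n = 5) in astrocytes, and Aqp4, a water channel of astrocytes, from 1.70 ± 1.58 to 70.9 ± 41.95. Slc1a2, a glutamate transporter, rose from 50.7 ± 39.0 to 581 ± 350.0 CPM. Aldh1l1, a folate enzyme used as an astrocyte marker, fell from 19.3 ± 4.82 to 6.55 ± 3.48, and this call was lost under 8 of 16 alternatives (adjusted p from 0.00788 to 0.136, edgeR or DESeq2). Mki67, a gene of cycling cells, fell from 449 ± 26.01 CPM in NPCs to 1.30 ± 0.818 in astrocytes. In bulk RNA, fewer cells of a type and less RNA per cell cannot be told apart.

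Olig1 and Olig2 are basic helix-loop-helix transcription factors, and Nkx2-2 is a homeodomain factor that acts with them in the ventral neural tube. Sox10 is switched on as cells commit to the oligodendrocyte lineage. Oligodendrocyte precursor cells (OPCs) carry the PDGF receptor Pdgfra and the proteoglycan NG2, the product of Cspg4, on their surface. Dcx encodes doublecortin, a microtubule-binding protein of migrating neuroblasts. NPCs grown in FGF2 are known to express Olig genes without being oligodendrocyte precursors.

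The 6 autosomal genes lie on 5 chromosomes in the RefSeq annotation of GRCm38.p6. Olig2 (ENSMUSG00000039830, chr16:91225550-91228677) and Olig1 (ENSMUSG00000046160, chr16:91269769-91271939) are 41092 bp apart. The others are Nkx2-2 (ENSMUSG00000027434, chr2:147176485-147195434), Pdgfra (ENSMUSG00000029231, chr5:75151322-75198206), Cspg4 (ENSMUSG00000032911, chr9:56865104-56899870) and Sox10 (ENSMUSG00000033006, chr15:79154913-79164490). Dcx (ENSMUSG00000031285) lies on the X chromosome at chrX:143855842-143933396.

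The sequences upstream of Cspg4 and Olig2 are shown because these genes stand at opposite ends of the allelic results below. Each is the 250 bases before the RefSeq start, read 5′ to 3′ on the + strand of GRCm38.p6, at chr9:56864854-56865103 for Cspg4 and chr16:91225300-91225549 for Olig2, with each CG dinucleotide in capitals.
Cspg4: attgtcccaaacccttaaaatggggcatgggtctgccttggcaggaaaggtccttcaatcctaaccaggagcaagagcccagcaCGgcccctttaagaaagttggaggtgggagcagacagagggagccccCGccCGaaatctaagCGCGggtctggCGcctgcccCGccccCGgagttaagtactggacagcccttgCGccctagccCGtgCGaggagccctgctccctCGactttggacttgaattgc
Olig2: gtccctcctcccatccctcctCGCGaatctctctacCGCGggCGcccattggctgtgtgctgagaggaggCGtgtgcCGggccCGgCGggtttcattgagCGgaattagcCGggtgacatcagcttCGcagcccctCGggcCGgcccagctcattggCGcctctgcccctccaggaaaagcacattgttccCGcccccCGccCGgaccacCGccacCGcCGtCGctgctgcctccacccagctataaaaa
The Cspg4 window holds 12 CG dinucleotides and the Olig2 window 22, against a median of 6 over 32851 RefSeq windows of the same length. At least 12 were found in 33.5% of all windows and at least 22 in 14.8%. Methylation was not measured in these libraries.

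The Olig genes had the highest levels of the set in every group. Levels are given as CPM after TMM scaling, computed separately for the poly(A) and the ribosomal RNA-depleted libraries, so that levels are compared only within a preparation. Divided by exon length to compare genes, the level of Olig1 was 258 ± 229.8 CPM per kb in astrocytes (SD, n = 5) and 543 ± 69.6 in poly(A) NPCs (SD, n = 3), and that of Olig2 was 58.4 ± 35.2 and 314 ± 67.6. The next genes in order in poly(A) NPCs were Cspg4 at 1.68 ± 1.47, Dcx at 1.06 ± 0.831, Nkx2-2 at 0.378 ± 0.272 and Pdgfra at 0.319 ± 0.0797 CPM per kb, and neighbours in this order differed by less than the larger of their SDs. In astrocytes the order was Pdgfra (1.05 ± 0.705), Cspg4 (0.989 ± 1.32), Nkx2-2 (0.906 ± 1.25) and Dcx (0.173 ± 0.219 CPM per kb), and here too neighbours differed by less than the larger of their SDs. Dcx was below Pdgfra in each of the 5 astrocyte clones.

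**Figure D1:**
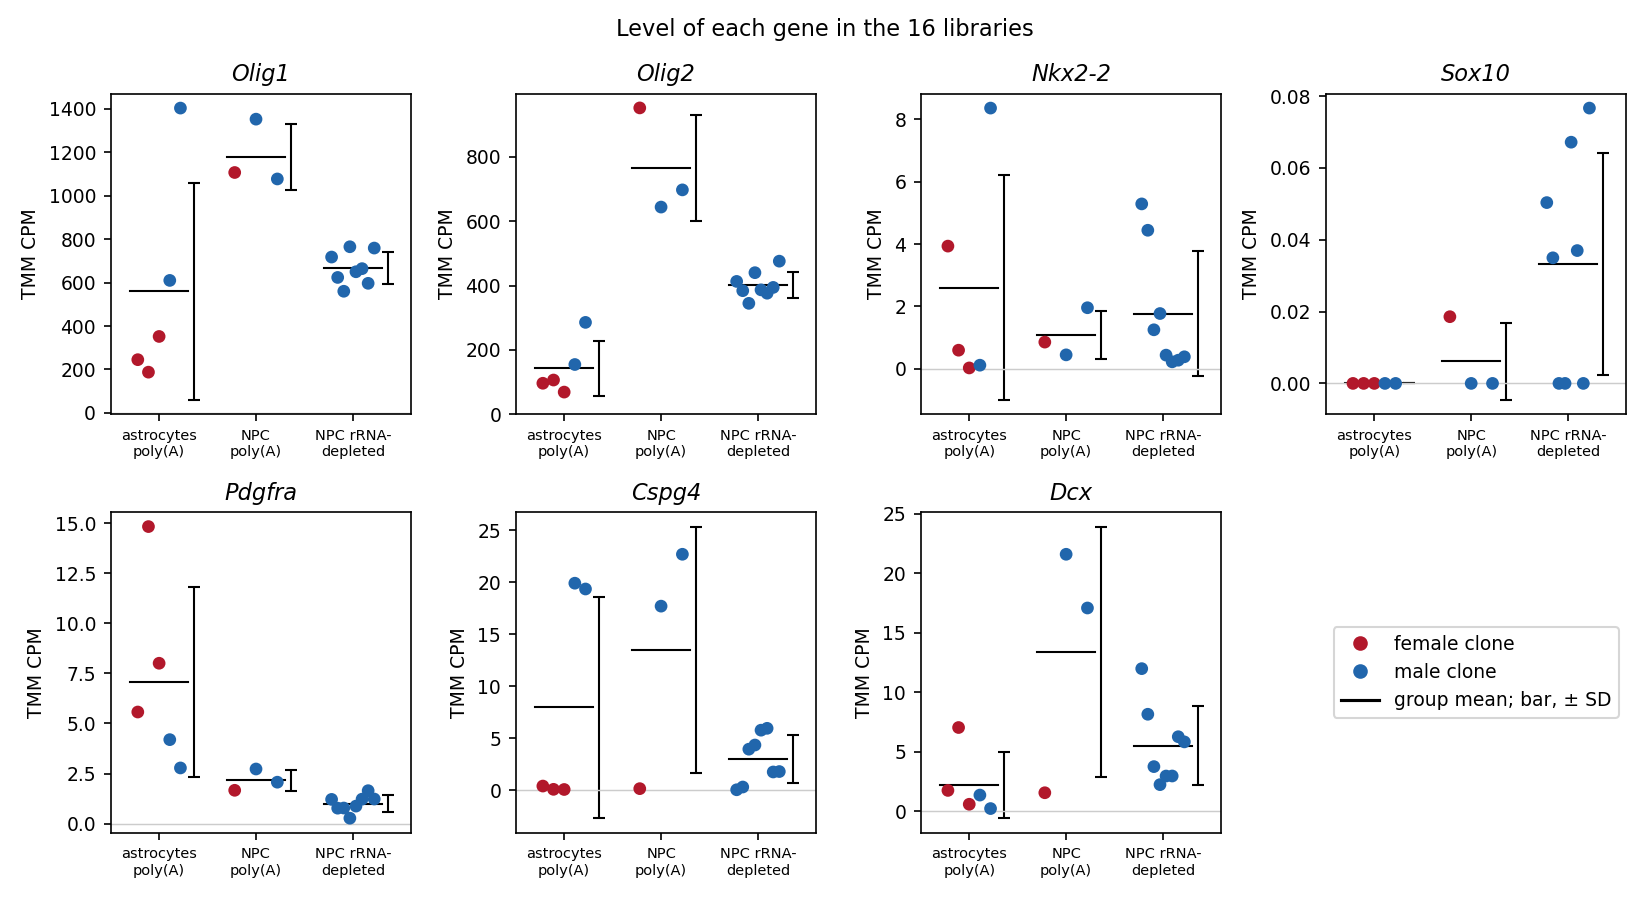
Level of each gene in TMM CPM (vertical axes, linear and separate for each gene) in astrocytes, poly(A) NPCs and ribosomal RNA-depleted NPCs, with 1 point per library, a line at the group mean and a bar of ± SD; the 8 ribosomal RNA-depleted libraries come from 4 clones. The 5 astrocyte points of Olig2 lie below its 3 poly(A) NPC points, and Cspg4 is near 0 in all 4 female clones.

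Astrocytes were compared with poly(A) NPCs to ask how the genes differ once NPCs have been taken towards the astrocyte fate. Olig2 was lower in astrocytes, and it was the only one of the 6 genes that passed the expression filter to be called at an adjusted p under 0.05 (edgeR quasi-likelihood test). Over all 18192 genes tested, 12.6% were called lower and 13.0% higher in astrocytes, and 1 of 6 is a share near that of all genes. Sox10 had too few reads to be tested.

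Olig2 had 96.3 CPM in the astrocyte clone 129, 106 in C2, 68.9 in G4, 155 in mC3 and 286 in mE6, against 952 in the NPC clone F5, 644 in mG2 and 697 in mG6. Every astrocyte clone lay below every NPC clone. The level fell 5.37-fold, by 2.42 on the log2 scale (SE 0.43, adjusted p = 0.00597 with edgeR). It was called lower under each of the 16 alternatives, with log2 changes from -3.12 to -1.60. In the ribosomal RNA-depleted NPCs Olig2 lay between 345 and 476 CPM.

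Olig1 had 245 CPM in astrocyte clone 129, 188 in C2, 352 in G4, 610 in mC3 and 1404 in mE6, against 1107 in NPC clone F5, 1353 in mG2 and 1077 in mG6. The groups overlapped through mE6 alone, which was above all 3 NPC clones. The log2 change in astrocytes was -1.08 (SE 0.61, 95% interval -2.46 to 0.31) with an adjusted p of 0.224 (edgeR), and without mE6 it was -1.79 with an adjusted p of 0.0203. With male clones only, the log2 change was -0.27 (adjusted p = 0.682, edgeR), and over 16 alternatives it ran from -2.12 to -0.27, with 2 of them past the threshold. The 3 female astrocyte clones were lower than the 2 male ones for Olig1 and also for Olig2.

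The reads of Olig1 for each read of Olig2 were therefore compared within each library, a ratio that does not depend on scaling and that was chosen after the levels were seen. The ratio was 2.54 in astrocyte clone 129, 1.76 in C2, 5.11 in G4, 3.95 in mC3 and 4.92 in mE6, and 1.16 in F5, 2.101 in mG2 and 1.54 in mG6. It was 2.17-fold higher in astrocytes on the geometric mean, with a log2 ratio of 1.76 ± 0.661 against 0.64 ± 0.427 (SD), and C2 lay within the NPC range. The difference of 1.12 in log2 did not pass the threshold in an exact permutation test (two-sided, p = 0.0714, 5 against 3 clones, where the smallest possible p is 0.0357). In the 8 ribosomal RNA-depleted NPC libraries the ratio was between 1.51 and 1.77.

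Nkx2-2, in contrast to the Olig genes, was at a few CPM or less and differed widely between clones of the same cell type. It had 3.93 CPM in astrocyte clone 129, 0.595 in C2, 0.0259 in G4, 0.114 in mC3 and 8.36 in mE6, and 0.855, 0.445 and 1.96 CPM in the NPC clones F5, mG2 and mG6. G4, with 2 reads, was under the 3-read limit of detection (0.0389 CPM). G4 and mC3 were below all 3 NPC clones, clone 129 and mE6 were above them, and C2 lay among them. The log2 change of 1.26 (SE 1.51, 95% interval -2.19 to 4.71) was far from the threshold (adjusted p = 0.580, edgeR).

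Sox10 was not detected in astrocytes. None of the 5 astrocyte libraries held a read, which allows a level of up to 0.0322 to 0.0397 CPM per library (3 reads). The poly(A) NPC libraries held 2 reads in all, both in F5, and the 8 ribosomal RNA-depleted libraries held 7. No fold change can be given, since both groups are at or under the limit of 3 reads in each library.

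Pdgfra was higher on average in astrocytes, but the difference did not pass the threshold. It had 5.57 CPM in clone 129, 14.8 in C2, 8.01 in G4, 4.19 in mC3 and 2.78 in mE6, against 1.66 in F5, 2.73 in mG2 and 2.07 in mG6. The groups did not overlap, and the gap was narrow between mE6 and mG2. The log2 change was 1.72 (SE 0.57, 95% interval 0.42 to 3.02; adjusted p = 0.0562, edgeR). Over 16 alternatives the log2 change ran from 0.54 (male clones only, adjusted p = 0.340, edgeR) to 2.42 (with only C2 and G4 as astrocytes, adjusted p = 0.0197). The threshold was passed in 4 of them, among which the adjusted p was 0.0365 without mE6 and 0.0104 with DESeq2.

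The ligands and the second receptor of the PDGF family gave no call with edgeR. None of Pdgfa, Pdgfb, Pdgfc, Pdgfd and Pdgfrb passed the threshold in either direction (0 of 5 tested by edgeR), where 25.5% of all genes tested did. Their median log2 change was -0.20, against 0.08 over all genes tested. At an unadjusted p under 0.05 there was 1 of the 5, Pdgfrb, a limit that at least 25.5% of all genes tested passed. DESeq2 called Pdgfrb at an adjusted p of 0.00910, and it called 6570 of 30429 genes. Pdgfa, the ligand of Pdgfra that drives OPC proliferation, stood at 25.4 ± 12.9 CPM in astrocytes and 49.9 ± 30.2 in NPCs (SD, n = 5 and 3). Pdgfrb, which pericytes carry, was at 0.719 ± 0.839 CPM in astrocytes and 0.067 ± 0.0522 in NPCs. Of 7 pericyte markers, 4 were tested, 1 rose and 0 fell, against 25.5% of all genes called in either direction. The summed level of the 7 was 1.42 to 13.9 CPM in astrocytes and 0.675 to 1.44 in NPCs. Kcnj8, a potassium channel gene, rose from 0.0381 ± 0.0339 to 1.60 ± 1.63 CPM (adjusted p = 0.0179, edgeR). Des and Acta2, a muscle filament and an actin gene, did not pass the threshold, at 0.0815 ± 0.0706 and 0.437 ± 0.555 CPM in NPCs and 0.864 ± 0.992 and 3.51 ± 3.02 in astrocytes, while Rgs5 and Vtn had mean levels under 0.05 CPM in both groups. Of 5 fibroblast markers, 4 were tested, 1 rose and 0 fell, against the same 25.5% of all genes. The summed level of the 5 was 4.05 to 217 CPM in astrocytes and 2.86 to 12.7 in NPCs. Col1a1, which encodes a collagen, rose from 0.601 ± 0.151 to 57.6 ± 86.9 CPM and was highest in C2 (211 CPM), the clone with most Pdgfra. The other collagen genes of the list did not pass the threshold or the expression filter, with Col3a1 at 4.86 ± 4.42 CPM in NPCs and 0.799 ± 0.780 in astrocytes and Col1a2 under 0.05 CPM on average in both groups, and Dcn, a proteoglycan gene, was at 0.812 ± 0.480 and 0.841 ± 0.803 CPM. The calls of Kcnj8 and Col1a1 were lost on leaving out any NPC clone. The part of these markers in the level of Pdgfra was not tested.

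Cspg4 divided the poly(A) clones by sex rather than by cell type. In astrocytes it had 0.407 CPM in clone 129, 0.0926 in C2 and 0.0778 in G4, all female, and 19.9 in mC3 and 19.3 in mE6, both male. In NPCs it had 0.158 CPM in the female F5 and 17.7 and 22.7 in the male mG2 and mG6. Among these poly(A) clones, the lowest male clone was above the highest female clone in both cell types. Between astrocytes and NPCs the log2 change was -0.76 (SE 1.84; adjusted p = 0.797, edgeR), and between the male clones of each cell type it was -0.04 (SE 0.23, 95% interval -0.64 to 0.56).

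Female and male clones were then compared across both cell types, with a term for cell type, in a fit added after these values were seen. Cspg4 was lower in female clones, with a log2 difference of -6.76 (SE 0.64; adjusted p = 0.0130, edgeR, n = 4 and 4), while only 0.0947% of 19000 genes were called, and it was the only member called. The test and the observation rest on the same 8 libraries. The call was lost when mC3 (adjusted p = 0.0650), F5 (0.0949), mG2 (0.0515) or mG6 (0.0548) was left out, although the log2 difference stayed between -6.79 and -6.64 in these fits. The ribosomal RNA-depleted clones, all male, did not share 1 level, with 0.0503 and 0.315 CPM in the libraries of Ch3, 3.95 and 4.35 in Ch5, 5.78 and 5.96 in Ch7 and 1.76 and 1.80 in Ch8.

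Dcx was high in only some NPC clones. It had 1.75 CPM in astrocyte clone 129, 7.03 in C2, 0.583 in G4, 1.36 in mC3 and 0.221 in mE6, and 1.55 in F5, 21.6 in mG2 and 17.1 in mG6. F5 lay among the astrocyte clones, so that the groups overlapped. The log2 change in astrocytes was -2.62 (SE 1.09, 95% interval -5.11 to -0.12; adjusted p = 0.111, edgeR). Over 16 alternatives the log2 change ran from -4.62 (male clones only, adjusted p = 0.0290, edgeR) to -1.81 (with only C2 and G4 as astrocytes, adjusted p = 0.386). The threshold was passed in 3 of them, among which the adjusted p was 0.0313 without C2 and 0.0376 with DESeq2.

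The same genes were compared among the Ch clones, where each clone had 2 libraries and the spread is that between libraries of a clone. Nkx2-2, Cspg4 and Dcx, 3 of 6 genes tested, differed among the 4 clones (adjusted p = 6.45e-05, 7.12e-05 and 0.00160, edgeR), against 16.6% of 17095 genes. Nkx2-2 had 5.29 and 4.44 CPM in Ch3, 1.25 and 1.77 in Ch5, 0.437 and 0.222 in Ch7 and 0.274 and 0.383 in Ch8. Dcx had 11.98 and 8.15 CPM in Ch3, 3.75 and 2.23 in Ch5, 2.96 and 2.96 in Ch7 and 6.26 and 5.83 in Ch8. Ch3 was thus the highest clone for Nkx2-2 and Dcx and the lowest for Cspg4. Olig1 lay between 560 and 765 CPM (adjusted p = 0.995), Olig2 between 345 and 476 (adjusted p = 0.670) and Pdgfra between 0.269 and 1.64 (adjusted p = 0.217), none of which passed the threshold.

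The other genes of the lineage did not move in 1 direction between NPCs and astrocytes. Of 9 tested genes among 12 other OPC genes, 1 rose and 2 fell, with a median log2 change of -0.06, and over all genes tested 25.5% were called in either direction. Ptprz1, a receptor phosphatase of progenitors and OPCs, fell from 1430.0 ± 389.6 to 334 ± 188 CPM (log2 change -2.097, adjusted p = 0.0195, edgeR), and Vcan, an extracellular matrix proteoglycan, fell from 443 ± 269 to 40.3 ± 16.3 (adjusted p = 0.00238). C1ql1, a secreted protein of the C1q family, rose from 0.589 ± 0.324 to 3.07 ± 1.33 CPM (adjusted p = 0.0239). The calls were lost under 3 of 16 alternatives for C1ql1, 2 for Ptprz1 and 0 for Vcan. Sox8, a relative of Sox10, was at 239 ± 22.3 CPM in NPCs and 229 ± 89.3 in astrocytes (adjusted p = 0.908).

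Of 18 genes of differentiating and myelinating oligodendrocytes, 12 were tested, 3 rose and 1 fell, against 25.5% of all genes tested called in either direction. Mal, a membrane proteolipid, rose from 0.211 ± 0.156 to 3.58 ± 3.41 CPM (adjusted p = 0.0242, edgeR), and Aspa, the enzyme that cleaves N-acetylaspartate, from 1.36 ± 0.450 to 7.55 ± 4.38 (adjusted p = 0.0323). Aspa lost its call under 8 of 16 alternatives, leaving out any NPC clone among them (adjusted p up to 0.119, edgeR), and Mal under 4. Enpp6 rose and Opalin fell, both with means of 1 CPM or less, and they are named after their values were seen. Genes of the myelin sheath were near 0, with Mbp at 0.110 ± 0.0871 CPM in astrocytes and 0.298 ± 0.317 in NPCs, and Mag, Mobp and Mog under 0.02 CPM on average in both groups.

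Of the proneural factors, the transcription factors that commit progenitors to a neuronal fate, and their targets, 9 of 16 were tested, 7 fell, against 12.6% of all genes called lower, and 0 rose (median log2 change -2.12, against 0.08 over all genes). Neurod1, a neuronal differentiation factor, fell from 5.81 ± 1.55 to 0.417 ± 0.298 CPM (log2 change -3.80, adjusted p = 0.00295, edgeR). Insm1, a zinc finger factor of neuronal precursors, fell by 3.43 on the log2 scale (adjusted p = 0.0188), the Notch ligand gene Dll3 by 4.79 (adjusted p = 0.0184) and Sox11 by 2.12 (adjusted p = 0.0169). The list moved with Mki67, and the part of cell cycling in it was not tested.

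Among 15 tested neuroblast and neuron genes, the setting in which Dcx is usually read, 2 rose and 1 fell, against 25.5% of all genes called in either direction. Gap43, a growth cone gene, fell from 37.7 ± 10.0 to 4.25 ± 3.22 CPM (adjusted p = 0.0209, edgeR). Dclk1, which encodes a doublecortin-like kinase, rose from 149 ± 59.2 to 447 ± 260.3 CPM (adjusted p = 0.0426), and Snap25, a synaptic vesicle fusion gene, from 0.423 ± 0.417 to 7.27 ± 7.73 (adjusted p = 0.0346). Of 16 alternatives, 8 lost the call of Dclk1, 4 that of Snap25 and 3 that of Gap43.

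The Id genes encode proteins that bind the partners of basic helix-loop-helix factors such as the Olig proteins and keep them off DNA, and they are known targets of BMP signalling. All 4 Id genes of a list of 6 Id and Hes genes rose, against 13.0% of all genes called higher (median log2 change of the list 2.91). Id1 rose from 24.3 ± 5.82 to 347 ± 139 CPM (log2 change 3.84, adjusted p = 0.000789, edgeR), Id2 from 71.0 ± 17.7 to 1033 ± 458 (3.86, adjusted p = 0.00112), Id3 from 97.9 ± 59.4 to 385 ± 98.7 (1.98, adjusted p = 0.0102) and Id4 from 1.48 ± 0.985 to 66.6 ± 51.8 (5.49, adjusted p = 0.00318). Hes1 and Hes5 did not pass the threshold.

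Hedgehog signalling induces Olig2 and Nkx2-2 in the ventral neural tube. Of its 12 genes, all tested, 2 rose and 2 fell, against 25.5% of all genes called in either direction, with a median log2 change of -0.58. Boc, a Hedgehog co-receptor, rose from 34.5 ± 18.4 to 571 ± 319 CPM (log2 change 4.05, adjusted p = 0.00447, edgeR), and Gli3, which acts mainly as a repressor of the pathway, from 32.2 ± 13.2 to 84.5 ± 23.4 (1.39, adjusted p = 0.0210). Gli3 lost its call under 4 of 16 alternatives. Of those that fell, the ligand gene Shh was under 1 CPM in the mean of both groups, and it is named after its values were seen. Gli1, a target of the pathway, was at 0.318 ± 0.323 CPM in NPCs and 0.168 ± 0.122 in astrocytes (adjusted p = 0.436).

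**Figure D2:**
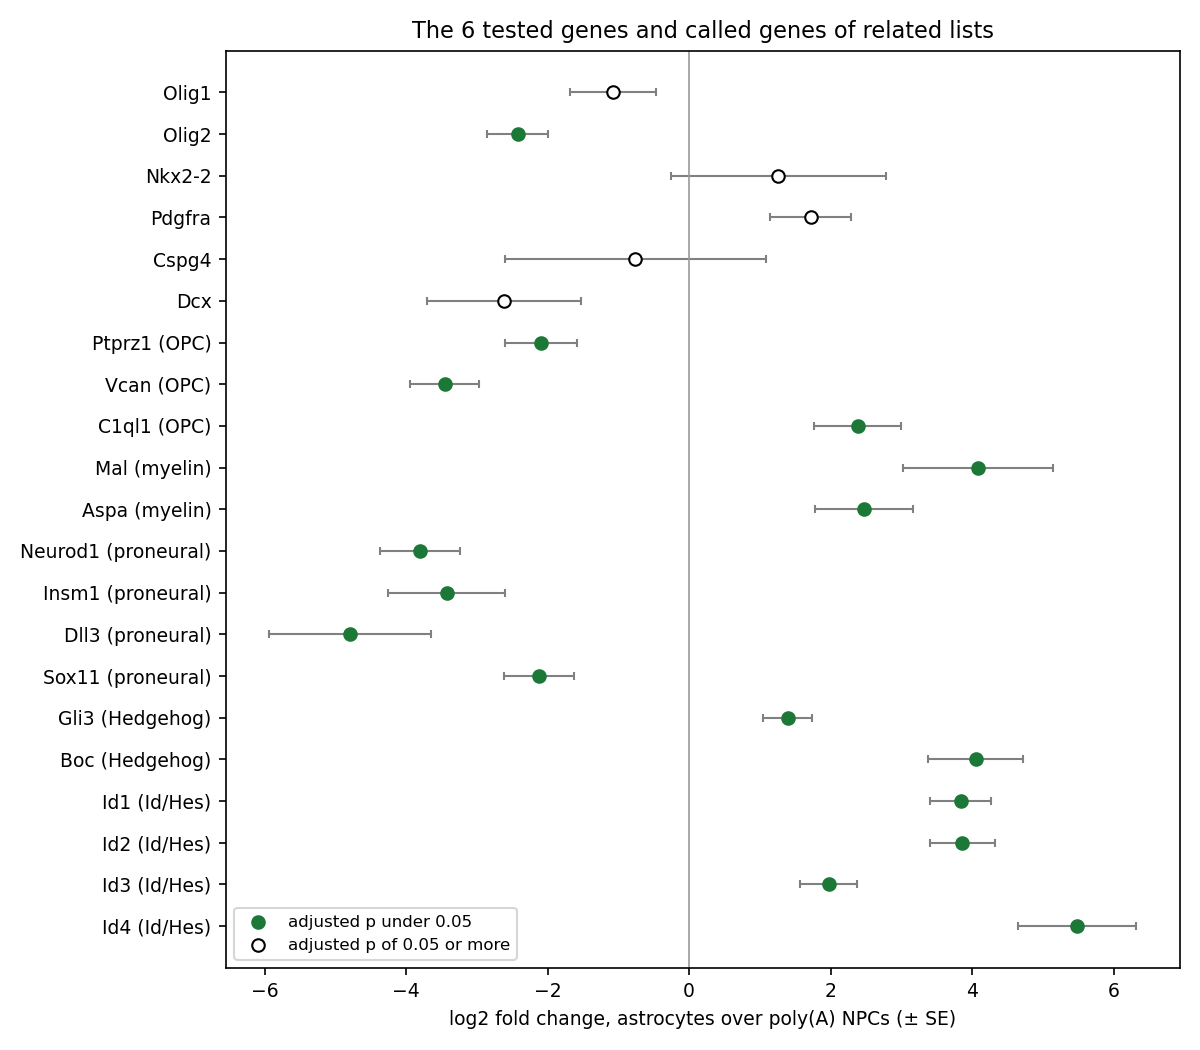
Log2 fold change of astrocytes over poly(A) NPCs (horizontal axis) with its SE for the 6 tested genes and for the named genes of 5 related lists, filled where the adjusted p was under 0.05. Olig2 is filled at -2.42, the 4 proneural genes lie to its left or close to it, and the 4 Id genes lie between 1.98 and 5.49.

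Markers of other cell types were examined beside these genes. The summed level of 5 neural crest and Schwann cell markers, cells that also carry Sox10, was 7.90 to 18.8 CPM in astrocytes and 3.27 to 7.01 in NPCs, so that every astrocyte clone was above every NPC clone. Foxd3 of that list had no read in astrocytes, and Tfap2a, a neural crest transcription factor that did not pass the expression filter, had 11.4 CPM in astrocyte clone 129, 2.57 in G4 and under 0.1 in the other 3 astrocyte clones. Their part in the levels above was not tested. The 4 microglia markers summed to 0.321 to 1.82 CPM in astrocytes and 0.176 to 0.381 in NPCs. Of 6 neural progenitor and cycling markers, Nes, Mki67 and Top2a fell and 0 rose, against 12.6% of all genes called lower. Nes, which encodes nestin, went from 1298 ± 335 to 93.6 ± 25.3 CPM.

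The genes most like each member over the 8 poly(A) libraries are given as a description, by Pearson's r of log2(CPM + 0.5), where all points share their library. Those of Cspg4 were Zic1 (r = 0.992), a zinc finger transcription factor, Taf9b (0.984), a TBP-associated factor, and Kcnn1 (0.982), a potassium channel. Zic1 had 51.4 to 143 CPM in the 4 male clones and 0 to 0.418 in the 4 female clones, and Taf9b had 15.3 to 39.5 and 0 to 0.0907. In the Ch clones, also male, Zic1 had 18.0 to 34.2 CPM and Taf9b 8.31 to 16.8, while Cspg4 was at most 0.315 in Ch3. For Olig2 they were Rpp30 (0.993), Dr1 (0.992) and Cfap20 (0.989), for Olig1 Rps27l (0.979), Cnih1 (0.9748) and Cdc34b (0.968), for Dcx Dchs1 (0.981), Iqgap2 (0.974) and Alg10b (0.971), and for Nkx2-2 Faap20 (0.903), Trappc6b (0.875) and Gm14124 (0.875). For Pdgfra they were Unkl (0.988), Neb (0.985) and ENSMUSG00000107417 (0.984).

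The allelic ratio was then examined in each clone, as the percentage of its allele-specific reads that were Cast. A ratio under 15% or over 85% was called monoallelic, one from 35% to 65% biallelic and the rest biased, and a ratio was used where at least 20 allele-specific reads were present. Of 72 possible values of the 6 autosomal genes 46 had enough reads, of which 29 were biallelic, 7 biased and 10 monoallelic. Over all autosomal genes and clones, 5.59% of 135541 values were monoallelic and 82.0% were biallelic. The median ratio of the genes of chromosomes 2, 5, 9, 15 and 16 lay between 48.1% and 50.1% in every clone.

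**Figure D3:**
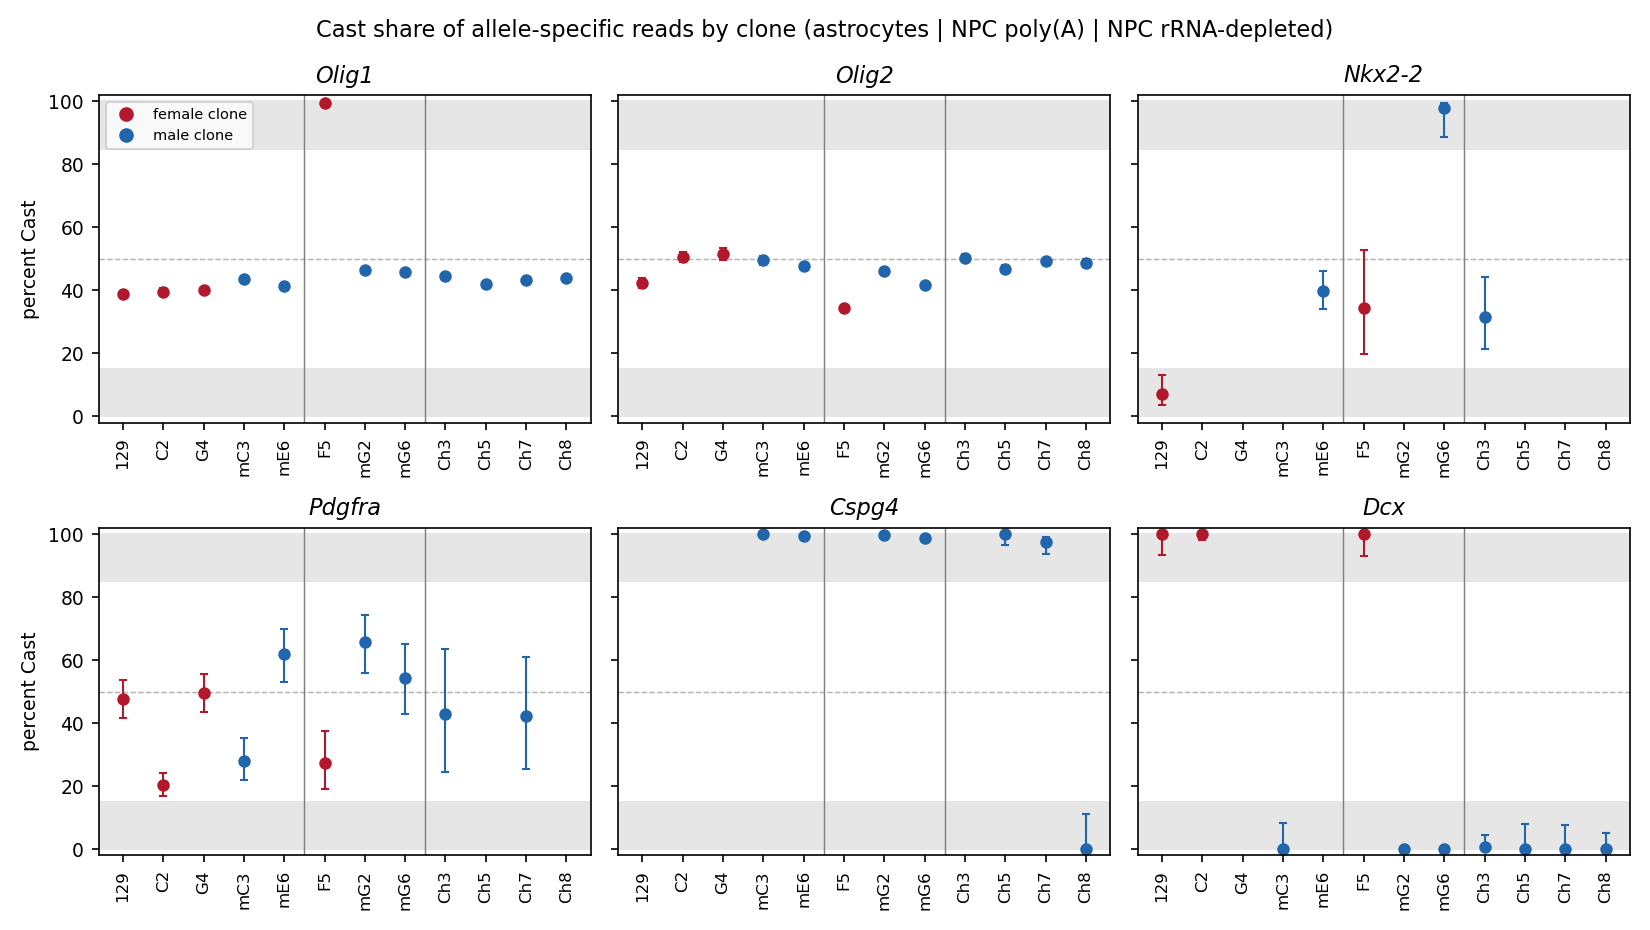
Percent Cast (vertical axis) of 6 genes in each clone with at least 20 allele-specific reads, with 95% Wilson intervals; lines separate astrocytes, poly(A) NPCs and ribosomal RNA-depleted NPCs, and grey bands mark monoallelic values. Cspg4 is Cast in 6 clones and 129 in Ch8, and Olig1 leaves its narrow range in F5.

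Cspg4 was monoallelic in each of the 7 clones where it could be read. In astrocytes 926 of 926 allele-specific reads in mC3 (100%, 95% Wilson interval 99.6 to 100%) and 992 of 997 in mE6 (99.5%) were Cast. In NPCs it was 697 of 700 in mG2 (99.6%), 992 of 1004 in mG6 (98.8%), 105 of 105 in Ch5 (100%, 96.5 to 100%) and 158 of 162 in Ch7 (97.5%). In Ch8, by contrast, 0 of 31 reads were Cast (0%, 0 to 11.03%), with 0 of 11 in the first library and 0 of 20 in the second. Both libraries of Ch5 and Ch7 were over 96% Cast, so that the Ch clones differed in which allele was read and not between libraries of a clone.

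The female clones had too few Cspg4 reads for a ratio. Reads of both alleles were found there, with 13 Cast and 5 129 reads in clone 129, 8 and 5 in F5, 3 and 1 in G4 and 2 and 1 in C2. Ch3 had 5 reads, all Cast. On the level of each allele, the Cast copy of Cspg4 gave 9.41 to 12.2 CPM in the 4 male poly(A) clones, and the 129 copy 0 to 0.148.

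Nkx2-2 was monoallelic from either allele. In astrocytes, 8 of 115 reads were Cast in clone 129 (6.96%, 95% Wilson interval 3.57 to 13.1%), and 99 of 248 in mE6 (39.9%, 34.0 to 46.1%). In NPCs, 45 of 46 were Cast in mG6 (97.8%, 88.7 to 99.6%), 10 of 29 in F5 (34.5%) and 19 of 60 in Ch3 (31.7%). The Nkx2-2 intervals of clone 129, mE6 and mG6 did not overlap, and the other 7 clones had 0 to 17 allele-specific reads. Cspg4 and Nkx2-2 were thus 2 of 5 autosomal members with ratios in at least 4 clones that were under 15% in a clone and over 85% in another, which was so for 2.26% of 12013 autosomal genes.

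Olig1 was 129-leaning in 11 clones and almost wholly Cast in F5. Its ratio was 38.7% in astrocyte clone 129, 39.6% in C2, 40.0% in G4, 43.6% in mC3 and 41.4% in mE6, and it was 46.4% in mG2, 45.7% in mG6 and 42.1% to 44.5% in the Ch clones. In F5, 54985 of 55237 allele-specific reads were Cast (99.5%, 95% Wilson interval 99.5 to 99.6%). The 129 copy gave 2.34 CPM in F5, against 51.8 to 411 in the other 7 poly(A) clones, and the Cast copy gave 511, against 33.9 to 290. The total level of Olig1 in F5 (1107 CPM) lay between those of mG2 and mG6.

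Olig2 was biallelic in 11 clones and biased in F5. Its ratio in astrocytes was 42.3% in clone 129, 50.7% in C2, 51.5% in G4, 49.5% in mC3 and 47.6% in mE6, and in NPCs 46.0% in mG2, 41.7% in mG6 and 46.8% to 50.1% in the Ch clones. In F5 15043 of 43664 reads were Cast (34.5%, 95% Wilson interval 34.0 to 34.9%). In this clone the allele with fewer Olig1 reads thus had more Olig2 reads, with 266 CPM from the 129 copy of Olig2 and 139.7 from its Cast copy.

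**Figure D4:**
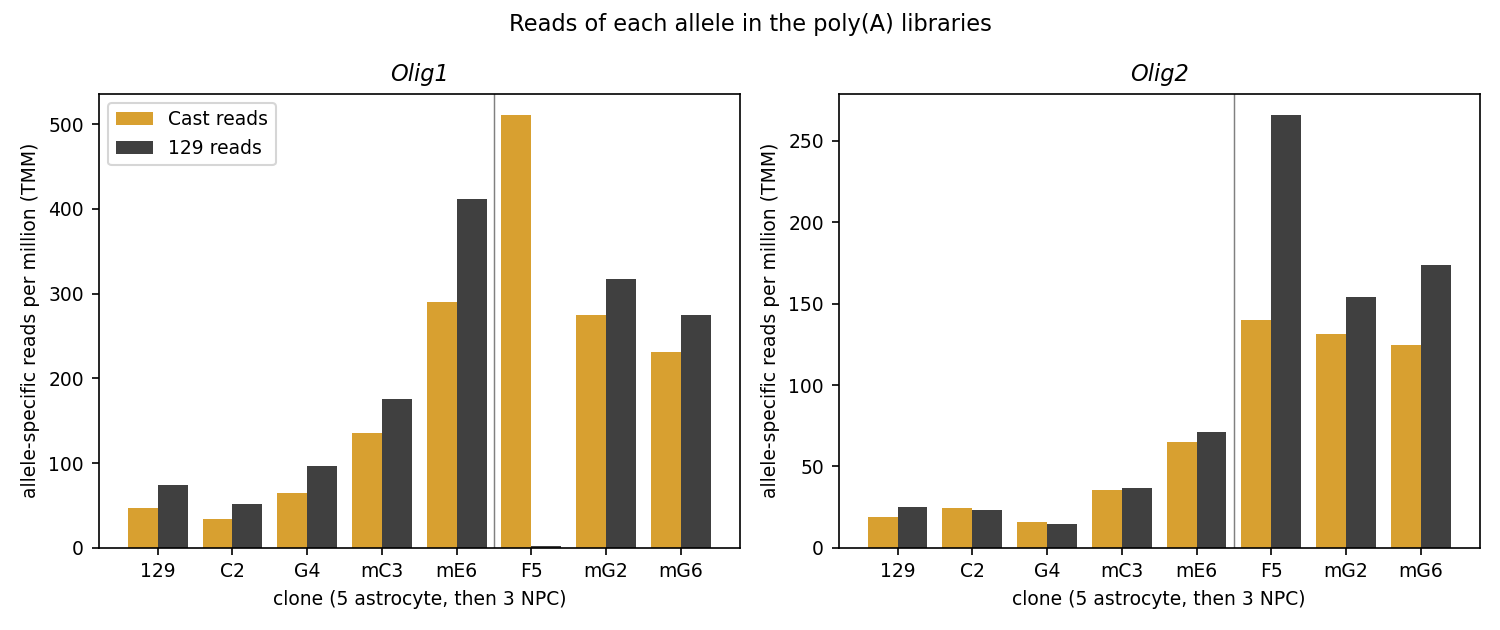
Allele-specific reads in TMM CPM (vertical axes, linear) of the Cast and 129 copies of Olig1 and Olig2 in the 8 poly(A) clones. In F5 the 129 bar of Olig1 is at 2.34 while the 129 bar of Olig2, at 266, is the taller of its pair.

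The other neighbours of Olig1, taken as the nearest genes that met the minimum in 10 or more clones, did not share its ratio in F5. Paxbp1 (225390 bp away) had 49.5% Cast there, Synj1 47.0%, Ifnar2 (100844 bp away) 42.1%, Il10rb 50.05% and Ifnar1 49.4%. Around Cspg4, the nearest measured genes on both sides, Snx33 (17318 bp away) and Lingo1 (68794 bp away), had ratios of 46.0% to 56.5% and of 23.4% to 59.0% over the 12 clones. Of the 72 values of 6 Cspg4 neighbours 0 were monoallelic and 70 were biallelic. Around Nkx2-2 it was 0 and 70 of 72, with the nearest measured gene, Xrn2, 98485 bp away.

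**Figure D5:**
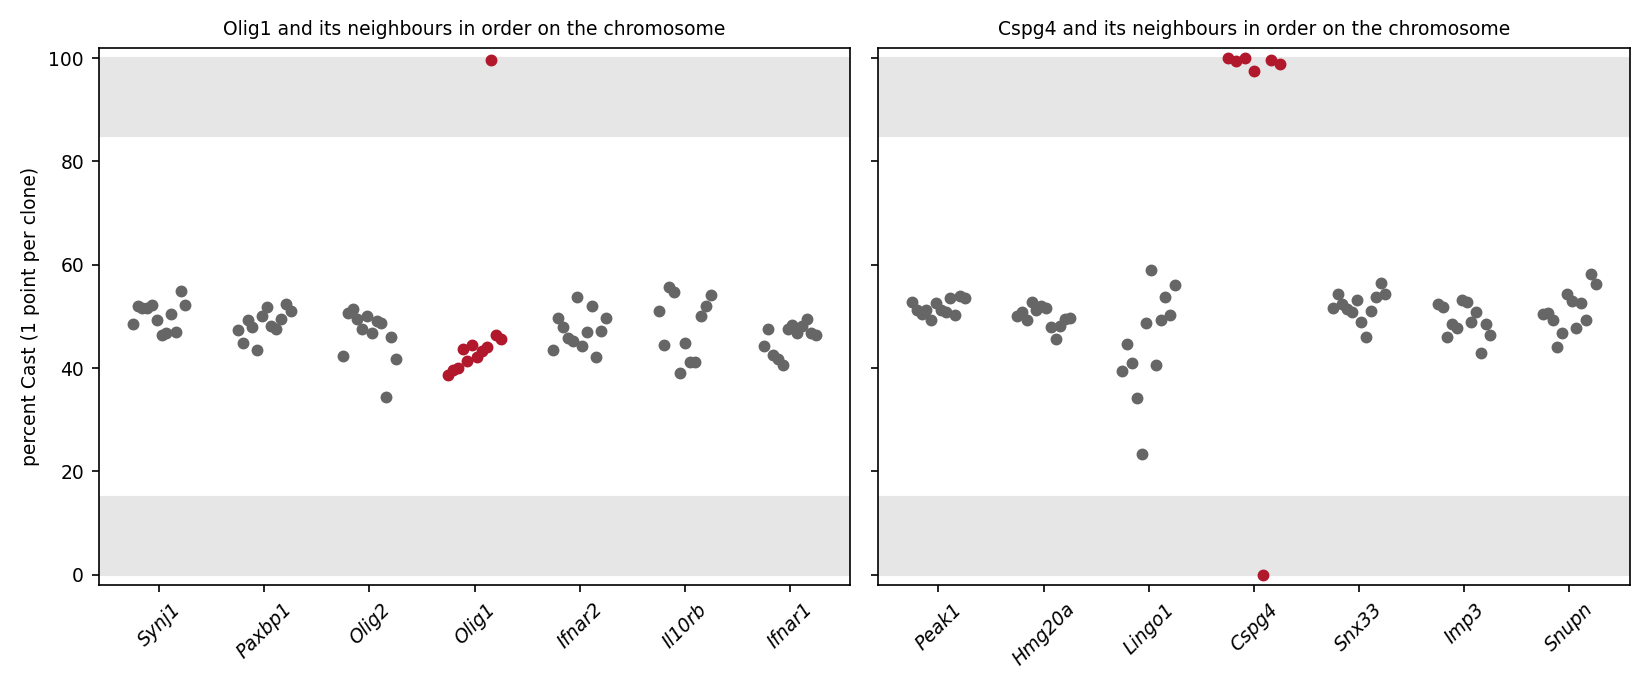
Percent Cast (vertical axis, 1 point per clone with at least 20 reads) of Olig1 and Cspg4, in red, and of the 3 nearest measured genes on each side, in grey, in chromosomal order but not to scale. The neighbours lie between 23.4% and 59.0%, while Olig1 reaches 99.5% in F5 and Cspg4 is at 0% or over 97%.

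Pdgfra varied between clones without being monoallelic. Its ratio was 47.7% in astrocyte clone 129 (122 of 256 reads), 20.3% in C2 (94 of 463), 49.6% in G4 (126 of 254), 28.1% in mC3 (48 of 171) and 61.8% in mE6 (76 of 123). In NPCs it was 27.3% in F5 (24 of 88), 65.7% in mG2 (65 of 99), 54.2% in mG6 (39 of 72), 42.9% in Ch3 (9 of 21) and 42.3% in Ch7 (11 of 26). The Wilson interval of C2 (16.9 to 24.2%) did not reach those of clone 129 (41.6 to 53.8%) and G4 (43.5 to 55.7%). C2, which had the highest Pdgfra level, had 4.88 CPM from the 129 copy and 1.24 from the Cast copy, and the Cast level lay between 0.608 and 1.63 in all 5 astrocyte clones.

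Dcx followed the X chromosome. In the 8 male clones, which carry only the 129 X, 0 to 0.794% of Dcx reads were Cast where the minimum was met (1 of 126 in Ch3 and 0 elsewhere). In the female clones 55 of 55 reads were Cast in clone 129, 199 of 199 in C2 and 52 of 52 in F5, and 15 of 16 in G4, which was under the minimum. Of all X-linked allele-specific reads, 73.1% to 78.2% were Cast in the 4 female clones and 0.092% to 0.289% in the male ones. The median X-linked gene with at least 20 allele-specific reads was 98.9% to 99.95% Cast in the female clones.

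The allelic ratios were compared between astrocytes and poly(A) NPCs, and each cell type was tested for a shift from equal expression, in fits over 11968 autosomal genes. No member was called for a difference in Cast share between the cell types (adjusted p from 0.334 for Olig2 to 0.964 for Cspg4, edgeR, 0 of 5 tested), while 0.668% of all genes were. At an unadjusted p under 0.05 there was 1 of the 5, Olig2, against 1650 of all 11968 genes. The Cast share of Olig2 was higher in astrocytes by 0.45 in log2 odds (SE 0.18). Olig2 was shifted towards 129 in NPCs (log2 odds of Cast -0.55, SE 0.14, adjusted p = 0.0322), where 23.9% of genes were called, and not called in astrocytes (-0.10, SE 0.11, adjusted p = 0.547), where 35.2% were. The NPC call of Olig2 was lost without F5 (-0.36, adjusted p = 0.144) and also without mG6 (0.103), mC3 (0.0527) or mE6 (0.0529).

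Olig1 was below 50% Cast in 5 of 5 astrocyte clones, with log2 odds of -0.55 (SE 0.92, adjusted p = 0.688, edgeR). The 8 libraries share an estimate of spread in which F5 enters, and without F5 the adjusted p of Olig1 in astrocytes was 0.000793 at the same log2 odds. For Cspg4 the log2 odds of Cast were 6.08 in astrocytes (SE 1.99, adjusted p = 0.0504, edgeR) and 5.66 in NPCs (SE 1.98, adjusted p = 0.0813). Neither passed the threshold. Without clone 129 both were called (adjusted p = 0.0221 and 0.0467), and without F5 the astrocyte value was (0.0367). Over 6 alternatives the adjusted p went up to 0.0666 in astrocytes, where 3 were called, and up to 0.103 in NPCs, where 1 was. Among the Ch clones only Olig1 and Olig2 had enough reads in each library, and neither differed in Cast share (adjusted p = 0.503 and 0.333, edgeR), against 9.04% of 9786 genes.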

How the data were processed

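RNA was sequenced from 16 libraries of 12 clones of F1 hybrid mouse cells. The authors aligned reads with TopHat2 (2.1.0) and Bowtie2 to GRCm38/mm10 masked at strain SNPs, split them by allele with SNPsplit and counted them per gene, using strand, with featureCounts (1.5.1). The annotation version is not given in the sources used here. The deposited counts (all, Cast and 129 reads for 50600 genes) are raw. The deposited Cast fraction was not used. Percent Cast was computed from the counts where at least 20 allele-specific reads were present, with the libraries of a Ch clone summed.

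Total expression and allelic counts were tested with edgeR (4.0.16, quasi-likelihood, TMM, Benjamini-Hochberg over all genes tested, adjusted p under 0.05), and DESeq2 (1.42.0) was an alternative for total expression. The allelic fits had a term for each library and left out X and Y genes. Wilson intervals cover counting error alone, as reads copied by PCR do not stand for separate molecules. Of the identifiers, 32722 matched a symbol, and positions and upstream sequences are RefSeq's on GRCm38.p6. Exon lengths are the union of exons in GENCODE M1. R 4.3.3, Python 3.11.15 and scipy 1.17.1 were used.

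Tested on simulated data with 200 genes changed by a log2 of 2, the step for astrocytes against NPCs recovered 65 and made 2 false calls among 17783 genes, and the step among the Ch clones recovered 160 with 33 false calls among 16745 genes. The allelic step recovered 198 with 11 false calls among 11968 genes between astrocytes and NPCs, and 188 with 26 false calls among 9786 genes among the Ch clones.

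The genes and lists were chosen with earlier results of these data known. The 7 genes are described throughout. Of each other list, up to 4 genes past the threshold with the largest fold change and a mean of at least 1 CPM are named, with the 3 genes most correlated with each member. Any other gene named was chosen after its values were seen. The 2 libraries of a Ch clone differed beyond sampling noise and were treated as separate libraries. Some genes of the lists are counted but not reported here by name.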

Additional observations from a re-analysis of the deposited data

Results flagged for a closer look

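Of 18 groups of 4 or 5 clones in which levels and ratios of the 7 genes were examined for a clone far from the others, 2 held one, where chance alone gives about 1 in 20. The Dcx level of astrocyte clone C2 (7.03 CPM) stood apart from the other 4 astrocyte clones, which lay between 0.221 and 1.75 CPM. The Dcx ratio of Ch3 (0.794% Cast, 1 of 126 reads) stood apart only because the other 3 Ch clones were at exactly 0, and it lies within their Wilson intervals.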

How the results depend on the processing

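The count of genes called between astrocytes and poly(A) NPCs, 4644, ranged from 2269 to 4849 when single clones were left out, with the 3 lowest values on leaving out an NPC clone (2667 without F5, 2269 without mG2 and 3030 without mG6). Between female and male clones, 18 genes were called with edgeR and 466 with DESeq2, and from 8 to 29 when single clones were left out. Among the Ch clones 2834 genes were called, 4361 without the expression filter, 1112 without Ch3, from 1509 to 3244 when single libraries were left out, and 3391 with the library number as a replicate block. The block left every call of a member in place. Same-numbered Ch libraries did not deviate together in every pair (r from -0.33 to 0.46), so that the numbers were not taken to pair them. The count of genes that differed in Cast share between astrocytes and NPCs (80) was 92 without clone 129 and from 5 (without F5) to 41 without any other single clone. The count called for Cast against 129 in NPCs (2866) ranged from 1571 to 3106, and it was 1716 without F5, 1679 without mG2 and 1571 without mG6.

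Some members that were not called changed direction. Nkx2-2 in astrocytes against NPCs had a log2 change of -1.80 with only the astrocyte clones C2 and G4, and Cspg4 had one of 0.088 with sex as a covariate. With single clones left out, the log2 difference of female from male clones ranged from -2.31 to 1.61 for Nkx2-2 and from -1.13 to 1.98 for Dcx. The difference in Cast share ranged from -1.15 to 0.026 in log2 odds for Pdgfra and from -0.78 to 1.96 for Cspg4, and the NPC log2 odds from -0.23 (without F5) to 3.76 for Olig1 and from -0.58 to 0.59 for Pdgfra. Of the named list genes, 372 of the values under alternatives kept their call and 60 lost it, with 0 reversals. The cause of these changes was not tested. Genes under 20 allele-specific reads gave no ratio, which left Sox10 without one in any clone.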
